A study of Mus musculus with 6 samples.

Results

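The 9 genes described here encode alpha subunits of heterotrimeric G proteins, the switches that sit between a G protein-coupled receptor and its effectors. They were taken by name from the 21959 genes of the deposited table and comprised Gnai1, Gnai2 and Gnai3 of the Gi class, Gnas of the Gs class, Gnaq, Gna11 and Gna15 of the Gq/11 class, and Gna12 and Gna13 of the G12/13 class. All 9 were found. The libraries are described as total RNA of mouse neutrophils from tumours of Hepa1-6, a mouse hepatoma line. They were labelled GPR35-negative (3 libraries) or GPR35-positive (3 libraries). No genotype, strain, age, treatment or time is given in the labels, no source used here says how the cells were divided by GPR35, and no label says that replicates were separate animals. The p-values therefore reflect the spread among these 6 libraries alone, which may be technical.

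An activated receptor makes the alpha subunit release GDP and bind GTP, after which alpha and the beta-gamma pair act on separate effectors. Gi subunits inhibit adenylyl cyclase and release beta-gamma, which in neutrophils drives chemotaxis; Gs stimulates the cyclase; Gq/11 subunits activate phospholipase C beta; and G12/13 subunits activate a set of guanine nucleotide exchange factors and so act on the cytoskeleton. GPR35, the receptor that divided the libraries, is known to couple to Gi/o and to G12/13 proteins, with Gα13 described as a prominent partner.

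Receptor choice depends in large part on the last residues of the alpha subunit, which enter the receptor. The coding bases of that tail are shown for every member. Bases can differ where the encoded residues do not. For genes with several complete coding transcripts, the one with the longest coding sequence is shown. The tail shown is that of 2 of 3 such transcripts for Gnai2, 7 of 14 for Gnas and 1 of 2 for Gna13. Each run holds the last 33 coding bases (11 codons, stop codon left out), 5′ to 3′ on the coding strand, from GENCODE M21 on GRCm38, and the capitals mark the fourth codon from the end.
Gnai1: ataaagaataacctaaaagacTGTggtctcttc
Gnai2: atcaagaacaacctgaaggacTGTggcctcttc
Gnai3: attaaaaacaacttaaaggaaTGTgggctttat
Gnas: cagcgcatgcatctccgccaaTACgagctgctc
Gnaq: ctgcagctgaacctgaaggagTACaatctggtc
Gna11: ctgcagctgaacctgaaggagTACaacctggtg
Gna15: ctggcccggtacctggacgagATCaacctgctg
Gna12: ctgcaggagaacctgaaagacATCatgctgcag
Gna13: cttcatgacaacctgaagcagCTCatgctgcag
All 3 Gi genes carry TGT at the marked codon, the cysteine codon at the site that pertussis toxin modifies, and none of the other 6 members has it. Within the Gi class Gnai1 and Gnai2 had 28 of 33 bases in common, and Gnai2 and Gnai3 24. Gnaq and Gna11 had 31 in common, while Gna15 had 21 in common with Gnaq. Gna12 and Gna13 had 26. Members of different classes had between 9 and 23 of 33 bases in common, so these counts do not sort the genes into classes. Gnaq had 22 in common with Gna12, and Gnai1 and Gnai3 had 23. The tail of Gnai2 lies in exon 8 of the gene at chr9:107615638-107615670, that of Gnai3 in exon 8 at chr3:108109425-108109457 and that of Gna13 in exon 4 at chr11:109396451-109396483.

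Values are in FPKM, fragments scaled to gene length and library size, so levels of different genes can be compared per length. The read total behind the FPKM, inferred from the steps between values, was between 15742744 and 18314104 in each library. A gene was tested if 3 or more libraries reached 1 FPKM, with limma-trend on log2(FPKM + 1), with Benjamini-Hochberg adjusted p-values over all 10060 genes tested. Gpr35 itself ranged from 1.30 to 2.03 FPKM in the GPR35-negative libraries and from 18.2 to 21.9 FPKM in the others. Neutrophil markers were present in all 6 libraries, together with markers of other cells, and hepatocyte and hepatoma markers had the largest sum in both groups. Beside the counts of calls that follow, 23.3% of all genes tested were called higher and 45.5% lower. The 15 mature neutrophil markers summed to 895 to 1146 FPKM across the GPR35-negative group and 9791 to 10740 across the GPR35-positive group (15 of 15 higher), the 12 macrophage and monocyte markers to 71.4 to 97.7 and 1516 to 1558 FPKM (11 of 11 tested higher), and 7 leukocyte-wide genes to 72.9 to 105 and 691 to 729 FPKM (7 of 7 higher). The 13 hepatocyte and hepatoma markers summed to 24710 to 26020 and 16460 to 16860 FPKM (10 lower, 1 higher). In several shorter lists 1 gene carried the sum. The 9 dendritic cell markers had a ratio of sums of 11.8 (3 of 3 tested higher) and 2.71 without Cd83, which was at 12.8 and 246 FPKM, and Zbtb46 was at 0.942 and 0.851 FPKM. The 9 mast cell, basophil and eosinophil markers had a ratio of 4.70 (5 of 5 higher) and 2.70 without Ear2, and the eosinophil gene Prg2 was at 0.527 and 0.316 FPKM. The 6 B and plasma cell markers had a ratio of 0.702 (1 of 1 lower) that rested on Sdc1, a gene epithelial cells also express, and the other 5 summed to 0.813 and 1.52 FPKM. The platelet and erythroid ratio was 1.02 (1 higher and 1 lower of 2) and 5.96 without Ppbp. The ratio was 2.19 for fibroblasts (5 of 5 higher), 0.746 for T and NK cells (4 of 8 lower) and 0.906 for endothelium (2 higher and 2 lower of 4). Among markers called higher, Fpr2, Adgre1, Csf1r, Mrc1, Ms4a7, Cx3cr1, Batf3, Ear2 and Eng had every GPR35-negative value under 1 FPKM. They passed the filter only through the GPR35-positive group, so their calls carry no weight in these counts. No marker was at 0 in all libraries. The part of the cell type markers in the differences of the alpha subunit genes was not tested, and in such bulk libraries fewer cells of a type and less RNA per cell cannot be told apart.

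Of the 9 members, 7 passed the filter, each with at least 1 FPKM in every library. In GPR35-positive libraries 4 were higher (Gna13, Gnai2, Gna15 and Gna12) and 1, Gna11, was lower, while Gnai3 and Gnaq did not pass. Among all genes tested 68.8% passed by the same rule, 23.3% higher and 45.5% lower, so 5 of 7 members is near the background. With median-of-ratios scaling between libraries, in which 27.4% of genes were higher and 30.1% lower, 5 members were higher and 1 lower. The median log2 difference of the 7 members was 0.35, against −0.19 for all genes tested. Groups did not overlap for 5 members on the higher side and 1 on the lower side, against 72.5% of all genes tested that were apart, 24.3% on the higher and 48.2% on the lower side.

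**Figure D1:**
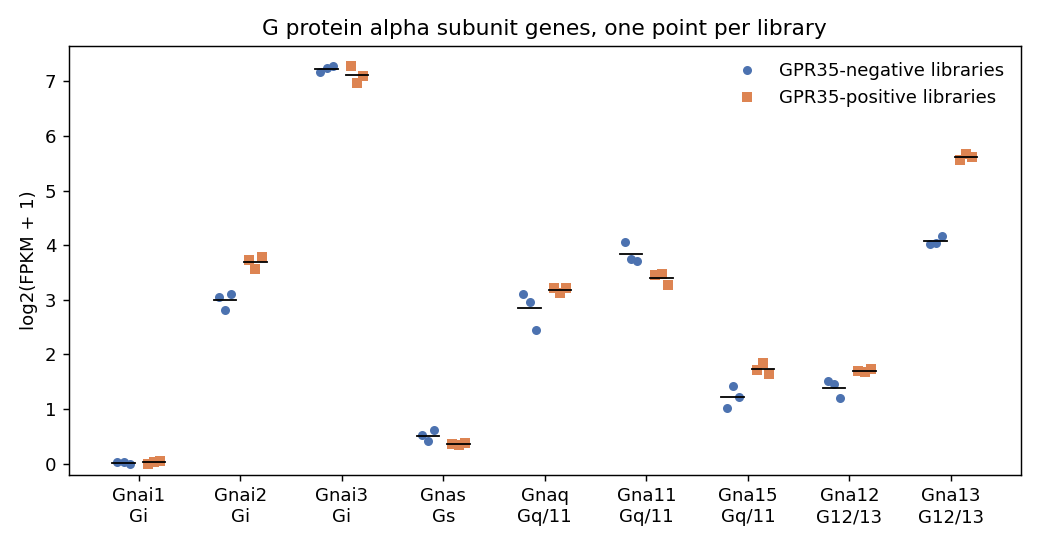
Level of each alpha subunit gene as log2(FPKM + 1) in the 3 GPR35-negative (circles) and 3 GPR35-positive (squares) libraries, with a bar at each group mean. Gnai3 is the highest member in every library, and Gna13 shows the widest gap between the groups.

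Leaving aside Gnas, whose level cannot be read as described below, Gnai3, 1 of 3 genes for inhibitory alpha subunits, was the most abundant member. Its level was 144, 150 and 155 FPKM across the GPR35-negative group and 155, 125 and 136 across the GPR35-positive group. The groups overlapped, and the means of 150 ± 5.69 and 139 ± 15.4 FPKM (SD, n = 3 each) gave a difference that did not pass the test (log2 difference −0.11, 95% interval −0.30 to 0.07, limma adjusted p = 0.246). The sign of this difference turned with median-of-ratios scaling, to 0.03, and without GPR35-positive replicate 1 Gnai3 passed the threshold at −0.20 (adjusted p = 0.0459). Between 6636 and 8669 reads covered the gene, ENSMUSG00000000001, which lies on the reverse strand of chromosome 3 from 108107280 to 108146146.

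Gnai2, the Gi gene whose product is a main transducer of chemoattractant receptors in leukocytes, was higher in GPR35-positive libraries. It was at 7.26, 6.06 and 7.58 FPKM across the GPR35-negative group and 12.2, 10.9 and 12.8 across the GPR35-positive group. Every GPR35-positive value exceeded every GPR35-negative one. The means were 6.97 ± 0.802 and 11.9 ± 0.966 FPKM (SD, n = 3 each), a ratio of 1.71 and a log2 difference of 0.70 (SE 0.10, limma adjusted p = 0.000154). The summed leukocyte-wide genes differed 8.15-fold between the same libraries, more than Gnai2. The gene lies on the reverse strand of chromosome 9 from 107614125 to 107635367.

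Within the Gi class Gnai2 gained on Gnai3. The log2 ratio of Gnai2 to Gnai3 was −4.31, −4.63 and −4.35 in GPR35-negative and −3.67, −3.52 and −3.42 in GPR35-positive libraries, so Gnai3 stayed the more abundant transcript per length in each. The groups did not overlap and differed by 0.90 (exact permutation test, two-sided, p = 0.1; adjusted over 8 such tests 0.114). With 3 libraries against 3 this test cannot go below 0.1, here or in the other ratios and shares, so none of the 8 can pass a threshold of 0.05. A ratio within a library does not move with the scaling between libraries.

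Gnai1 was near the limit of detection. It was listed at 0.0185, 0.0188 and 0 FPKM across the GPR35-negative group and at 0, 0.0195 and 0.0348 across the GPR35-positive group, which is 0 to 2 reads in each. A count of 0 allows up to 3 reads, 0.0523 to 0.0608 FPKM of this gene depending on the library, for counting error only. All 6 values are under that limit, so no fold is given.

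Gna13, whose product GPR35 is known to engage, differed most among the members. It was at 15.2, 15.4 and 17.0 FPKM across the GPR35-negative group and 46.0, 49.96 and 48.0 across the GPR35-positive group. The lowest GPR35-positive library was well above the highest GPR35-negative one, and the spread inside each group was small. The means were 15.8 ± 0.971 and 48.0 ± 1.96 FPKM (SD, n = 3 each), a ratio of 3.03 and a log2 difference of 1.54 (SE 0.07, limma adjusted p = 2.78e-08). Between 1677 and 5648 reads covered the gene, at chr11:109362831-109401369 on the forward strand. An antisense gene shares 2.35% of its exon bases.

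Gna12, the other member of the class, was far less abundant. It was at 1.85, 1.76 and 1.30 FPKM across the GPR35-negative group and 2.24, 2.19 and 2.33 across the GPR35-positive group, and the groups did not overlap. The log2 difference was 0.31 (SE 0.10, limma adjusted p = 0.0158), and the call ended without GPR35-positive replicate 3 (adjusted p = 0.0544) and with no filter on low values (0.0507). The difference was larger with a pseudocount of 0.1, at 0.45 (adjusted p = 0.0208), and with median-of-ratios scaling, at 0.40 (0.00350). By limma-voom on recovered reads, which changes the added constant and the scaling together, it was 0.69 (adjusted p = 0.00379). Its depth was 70 to 146 reads, and the opposite-strand gene Amz1 shares 13.4% of its exon bases, so reads of the pair may not be told apart. The log2 ratio of Gna13 to Gna12 rose from 3.29 ± 0.362 to 4.41 ± 0.0870 (SD, n = 3 each, exact permutation p = 0.1), higher in each GPR35-positive library than in any GPR35-negative one.

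**Figure D2:**
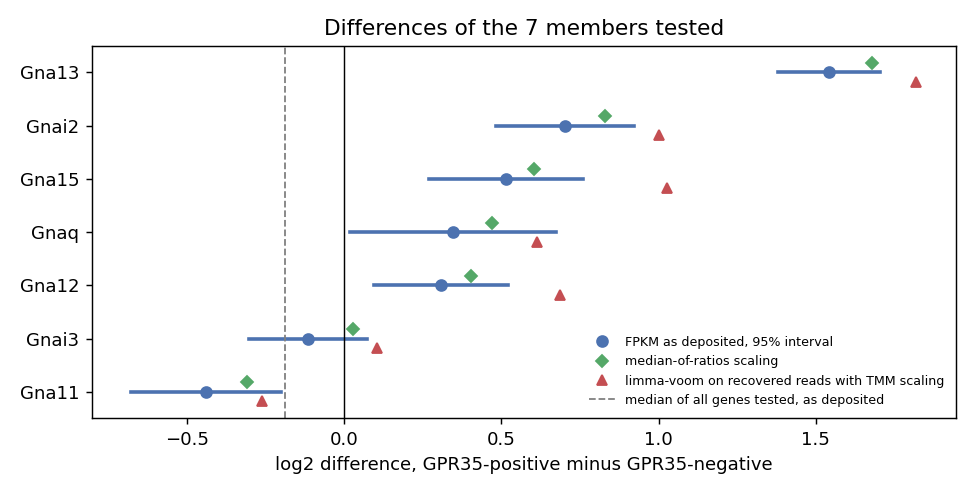
Log2 difference of each member tested, GPR35-positive minus GPR35-negative, with its 95% interval on the deposited FPKM (circles), after median-of-ratios scaling (diamonds) and by limma-voom on recovered reads (triangles). Gna13 lies at 1.54, Gna11 at −0.44, and both rescaled values of every member lie to the right of the deposited one.

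The Gq/11 genes went in different directions. Gna11, a broadly expressed activator of phospholipase C beta, was at 15.7, 12.4 and 12.1 FPKM across the GPR35-negative group and 9.96, 10.1 and 8.65 across the GPR35-positive group. All GPR35-positive values were below all GPR35-negative ones. The log2 difference was −0.44 (SE 0.11, limma adjusted p = 0.00459). It stayed below 0 with median-of-ratios scaling, at −0.31 (adjusted p = 0.0229), and did not pass by limma-voom on recovered reads, at −0.26 (0.0707). The ratio of means was 0.715, beside 0.655 for the summed hepatocyte and hepatoma markers.

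Gnaq, the closest relative of Gna11, was at 7.63, 6.82 and 4.48 FPKM across the GPR35-negative group and 8.30, 7.78 and 8.30 across the GPR35-positive group. The groups did not overlap, although GPR35-negative replicate 3 was much lower than the other two. The log2 difference of 0.35 (95% interval 0.02 to 0.67) did not pass (limma adjusted p = 0.0573). With median-of-ratios scaling it did pass (0.47, adjusted p = 0.0136) as it did without GPR35-negative replicate 1 (0.48, 0.0162), whereas it was 0.15 without GPR35-negative replicate 3 (0.159).

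The balance of the 2 genes shifted from Gna11 towards Gnaq. The log2 ratio of Gnaq to Gna11 was −1.04, −0.86 and −1.43 in GPR35-negative and −0.26, −0.38 and −0.06 in GPR35-positive libraries. The groups did not overlap (difference 0.88, exact permutation p = 0.1). Gna11 stayed the more abundant of the pair in all 6 libraries.

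Gna15, which is known as the Gq-class subunit of blood cells and couples to a wide range of receptors, was at 1.03, 1.69 and 1.34 FPKM across the GPR35-negative group and 2.30, 2.61 and 2.12 across the GPR35-positive group. Every GPR35-positive value was higher. The log2 difference was 0.51 (SE 0.11, limma adjusted p = 0.00218) and the ratio of means 1.73, on 38 to 91 reads a library. Gna15 and Gna11 are neighbours on the reverse strand of chromosome 10, from 81502306 to 81524225 and from 81528724 to 81545190. Their log2 ratio, Gna15 to Gna11, rose from −3.33 ± 0.540 to −2.03 ± 0.0810 (SD, n = 3 each, exact permutation p = 0.1), with no overlap between the groups.

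Gnas, which encodes the cyclase-stimulating subunit, was listed at only 0.433, 0.332 and 0.530 FPKM across the GPR35-negative group and 0.277, 0.269 and 0.302 across the GPR35-positive group. All GPR35-positive values were lower. The gene did not pass the filter, and its level cannot be read as that of the Gs transcript. In GENCODE M21 an opposite-strand gene, Gm20721 (chr2:174330319-174346712), covers 29.7% to 97.5% of the coding bases of the 7 Gnas transcripts that end in the tail shown above, tail included. Gm20721 itself was listed at 0 to 0.235 FPKM, and no source used here says whether the authors' counting used strand or set aside reads that fall in both genes. The part of this overlap in the low Gnas values was not tested. The FPKM of Gnas also did not resolve into whole reads with the GENCODE M21 length, so no read count is given.

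The order of listed levels was the same at the top in both groups, with Gnas set aside for the reason just given. Gnai3 exceeded the next member, Gna13, in all libraries, with mean levels of 150 against 15.8 FPKM across the GPR35-negative group and 139 against 48.0 across the GPR35-positive group. In GPR35-negative libraries Gna13 and Gna11 overlapped, as did Gnai2 and Gnaq, and Gna12 and Gna15. In GPR35-positive libraries the order below Gna13 was Gnai2, Gna11, Gnaq, Gna15 and Gna12, and Gna15 and Gna12 were the one neighbouring pair whose ranges overlapped.

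Summed over the 9 members the level was 195.5 ± 3.30 FPKM across the GPR35-negative group and 221 ± 14.2 across the GPR35-positive group (SD, n = 3 each). The Gi class made up 78.3%, 80.3% and 81.6% of that sum in GPR35-negative and 70.8%, 65.0% and 68.1% in GPR35-positive libraries. The G12/13 share was 8.83%, 8.82% and 9.17% against 20.4%, 25.02% and 23.0%. Neither share overlapped between the groups (differences of −12.1 and 13.9 percentage points, exact permutation p = 0.1 each, adjusted 0.114). Shares of the same sum depend on each other, so these differences are not separate results. On the deposited values no Gi gene was called lower, as Gnai3 did not pass and Gnai2 was higher. Gna13, part of the same sum, was at 15.8 and 48.0 FPKM. The Gq/11 share was 10.8 ± 1.83% and 9.09 ± 0.656% (SD, n = 3 each) and overlapped (exact permutation p = 0.2). Gnai3 alone gave 76.5% and 62.5% of the sum on average, and Gna13 8.10% and 21.8%. The Gs share rests on Gnas and is not read for the reason given above. The sum also holds the listed Gnas level, so the other shares hold for the listed values only. Leaving Gnas out of the sum does not show what a higher Gnas level would give.

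**Figure D3:**
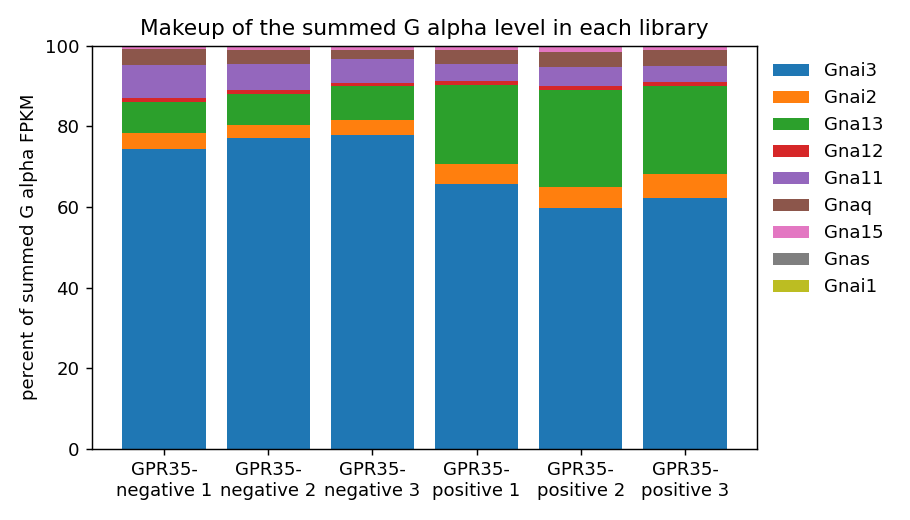
Percent of the summed alpha subunit FPKM that each member made up, by library. The Gna13 part is 7.87% to 8.52% of the bar in GPR35-negative and 19.5% to 24.0% in GPR35-positive libraries, and the Gnai3 part is the largest throughout.

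Of the classes that GPR35 is known to couple to, transcripts of Gnai2, Gnai3, Gna12 and Gna13 were present at 1 FPKM or more in all 6 libraries, and Gnai1 was at 2 reads or fewer. The other Gi/o genes were also low. Gnao1 and Gnaz, which encode the neuronal Go subunit and the toxin-insensitive Gz subunit, were at 0 to 0.0158 and 0 to 0.0352 FPKM. None of the 7 alpha genes outside the 9 reached the filter, and the highest value of any was 0.445 FPKM, for the transducin gene Gnat2, of photoreceptor cones, in GPR35-negative replicate 1. Gnat1 and Gnat3, the rod and taste transducins, were at no more than 0.0574 and 0.0858 FPKM, Gna14 of the Gq class at no more than 0.0892 and the olfactory gene Gnal at no more than 0.230 FPKM. These are levels in libraries that also hold hepatoma transcripts, and they do not show which alpha subunit shares a cell with the receptor.

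The receptor and the members differed to different degrees. Gpr35 was 12.9-fold higher by mean FPKM, against 3.03-fold for Gna13 and 1.71-fold for Gnai2. In GPR35-positive libraries Gnai3, Gna13, Gpr35 and Gnai2 were at 139, 48.0, 20.2 and 11.9 FPKM, and in GPR35-negative libraries at 150, 15.8, 1.57 and 6.97 FPKM.

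Partners and effectors were described from lists of the same pathway. For all the lists below, 23.3% of all genes tested were higher and 45.5% lower, with a median log2 difference of −0.19. With median-of-ratios scaling these shares were 27.4% and 30.1%. Of 17 beta and gamma subunit genes 9 were tested, of which 5 were higher and 3 lower, with a median log2 difference of 0.17 (0.09 over 16 genes without a filter). With median-of-ratios scaling 6 were higher and 1 lower, because Gnb2 and Gng3 no longer passed and Gnb1 did. Gngt2, a gamma subunit first described in photoreceptors and also expressed by blood cells, went from 1.91 ± 0.347 to 29.9 ± 2.30 FPKM (SD, n = 3 each, log2 difference 3.41, limma adjusted p = 1.49e-09). Gng2 went from 0.713 ± 0.121 to 4.78 ± 0.0808 FPKM, and Gng11 and Gng12 differed by 1.10 and 0.39. All GPR35-negative values of Gng2 and Gng11 were under 1 FPKM, so these 2 passed the filter only through the group where they were high. Gnb5, a beta subunit that pairs with a family of RGS proteins, was lower by −0.51. Gng10 was listed at 0.0441 to 0.242 FPKM, and 71.99% of its exon bases are shared with the overlapping gene Gm20503.

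The chaperones of newly made alpha subunits were lower. Ric8a, which folds Gi, Gq and G13 subunits, was at 9.90 ± 0.713 and 7.67 ± 0.0755 FPKM (SD, n = 3 each, log2 difference −0.33, limma adjusted p = 0.00465), and Ric8b, which folds Gs subunits, differed by −0.44. The Ric8a call ended by limma-voom on recovered reads (adjusted p = 0.147). The GPSM proteins hold Gi alpha subunits in their GDP state. Of their genes Gpsm1 and Gpsm3 were higher by 1.42 and 0.81 and Gpsm2 lower by −0.56. In all, 2 of the 5 genes tested in this list of 6 were higher and 3 lower (median −0.33, and −0.02 without a filter).

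Of 9 effectors of beta-gamma 7 were tested and all 7 were called higher, but 4 of these passed the filter through 1 group only. The median log2 difference was 1.20 (1.19 over all 9 without a filter, all higher). Of the 7, 4 (Pik3cb, Pik3r5, Pik3r6 and Prex1) had every GPR35-negative value under 1 FPKM and passed the filter only through the GPR35-positive group, so their calls carry no weight as a count. By ratio of mean FPKM, Prex1, a Rac exchange factor, was 6.81-fold higher, and Pik3r5 and Pik3r6, the regulatory subunits of the gamma isoform of phosphoinositide 3-kinase, 7.67-fold and 9.52-fold. Their differences on the log2(FPKM + 1) scale were 1.66, 1.41 and 1.19, and 2.98, 3.12 and 3.43 by limma-voom on recovered reads. Elmo1 and Dock2, a Rac activator complex of leukocytes, were 3.48-fold and 3.08-fold higher. Several of these genes are known to be restricted to blood cells, and the leukocyte-wide genes were 8.15-fold higher in the same libraries. The part of that difference in these calls was not tested.

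Effectors of the alpha subunits themselves went both ways. Of 7 effectors of G12/13, 6 were tested, and 3 were higher and 1 lower (median 0.11, and −0.05 over all 7 without a filter). The exchange factor gene Akap13 was at 5.05 ± 0.719 and 8.30 ± 0.251 FPKM (SD, n = 3 each, log2 difference 0.63, limma adjusted p = 0.000353), and the cytoskeletal kinase gene Rock1 was higher by 0.54. Arhgef1, the exchange factor that G13 activates in leukocytes, was lower at 13.1 ± 1.14 and 9.34 ± 2.27 FPKM (log2 difference −0.47, limma adjusted p = 0.0140), a call that ended with median-of-ratios scaling (adjusted p = 0.0568). Arhgef11, at 2.48 and 2.03 FPKM, missed the threshold (adjusted p = 0.170).

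Of 19 genes of the cyclase and cyclic AMP pathway 12 were tested, with 4 higher and 6 lower and a median of −0.18 (0.02 without a filter). The median with the filter is near the −0.19 of all genes tested, of which 23.3% were higher and 45.5% lower. The phosphodiesterase gene Pde4b, which degrades cyclic AMP, went from 8.39 ± 0.822 to 72.3 ± 3.04 FPKM (SD, n = 3 each, log2 difference 2.97, limma adjusted p = 9.16e-10). The cyclase genes split, with Adcy7, the isoform of blood cells, going from 0.187 to 1.07 FPKM (5.73-fold) and Adcy6 from 2.22 to 1.13 FPKM (ratio 0.512). On the log2(FPKM + 1) scale these were 0.80 and −0.59, and by limma-voom on recovered reads 2.71 and −0.75. Adcy7 passed the filter only through the GPR35-positive group, and Adcy1 only through the GPR35-negative one. Rapgef3, a cyclic AMP-gated exchange factor, and Prkacb, a catalytic subunit of protein kinase A, were lower by −0.72 and −0.60. Median-of-ratios scaling gave 5 higher and 4 lower.

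Of 13 Gq effectors 8 were tested, with 3 higher and 4 lower and a median of −0.14 (−0.04 without a filter). The protein kinase C gene Prkcd was 2.86-fold and Prkcb 8.97-fold higher by mean FPKM, which is 1.45 and 0.91 on the log2(FPKM + 1) scale and 1.74 and 3.41 by limma-voom on recovered reads, and Prkca was lower by −0.61. Of the 3 called higher, Prkcb and Itpr1 had every GPR35-negative value under 1 FPKM and passed the filter only through the GPR35-positive group, as Plcb1 did through the GPR35-negative one. The calcium channel genes Itpr1 and Itpr3, which answer to the second messenger made by phospholipase C, differed by 0.55 and −0.79.

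**Figure D4:**
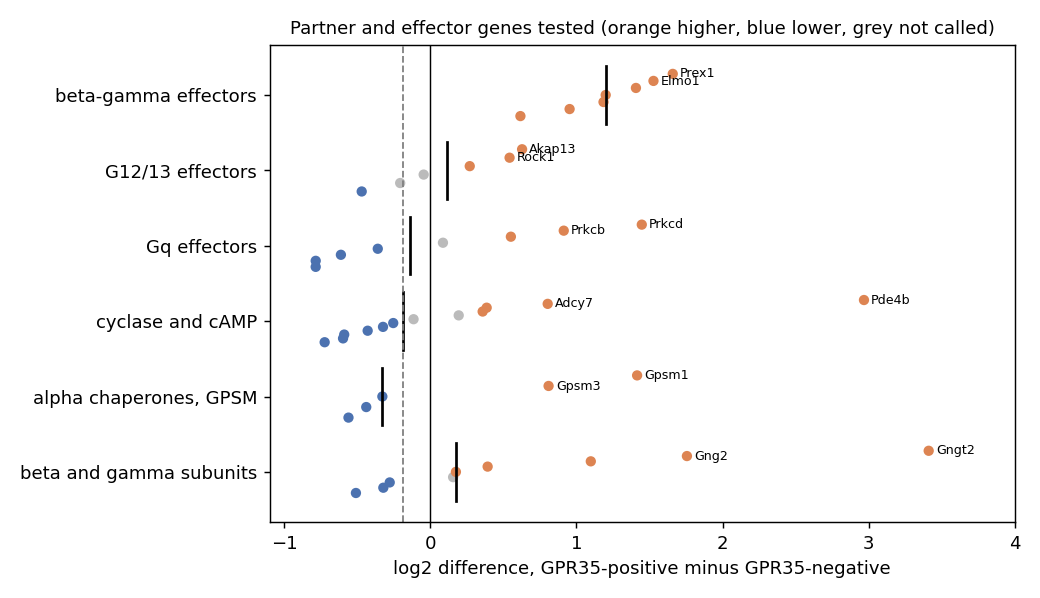
Log2 difference of each gene tested in the 6 partner and effector lists, with a bar at each list's median and a dashed line at the median of all genes tested, −0.19. Every beta-gamma effector tested is to the right of 0, and the other lists hold genes on both sides. Of the 7 beta-gamma effectors, 4 passed the filter only through the GPR35-positive group.

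Each member was also set beside the genes with the most similar profile, by the root-mean-square distance between log2(FPKM + 1) values over the 6 libraries after centring each gene on its mean. For Gna13 these were Smim3 and Nudt18 (distances 0.049 and 0.052), for Gnai2 Rnf166 and Fam133b (0.063 and 0.066), and for Gnai3 Acadsb and Exosc9 (0.022 and 0.035). For Gna11 they were Prodh2 and Diexf, for Gnaq Serpina3n and Gramd1b, for Gna15 Atp11b and Emd, and for Gna12 Eif4a2 and Inpp1. These distances rank profiles over 6 libraries in 2 groups and were not tested.

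The promoter table of RefSeq (GRCm38.p6) held windows for 8 of the 9 members, and Gnai2 had none. The 250 bases before the start are shown for Gna13 and Gna15, the members of the G12/13 and Gq/11 classes with the largest rise, 5′ to 3′ on the gene's strand. Capitals mark matches to a GC box.
Gna13: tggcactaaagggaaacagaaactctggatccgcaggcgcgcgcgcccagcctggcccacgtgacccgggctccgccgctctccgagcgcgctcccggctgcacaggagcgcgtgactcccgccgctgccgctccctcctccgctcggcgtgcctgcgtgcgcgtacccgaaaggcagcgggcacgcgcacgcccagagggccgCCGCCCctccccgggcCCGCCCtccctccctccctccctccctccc
Gna15: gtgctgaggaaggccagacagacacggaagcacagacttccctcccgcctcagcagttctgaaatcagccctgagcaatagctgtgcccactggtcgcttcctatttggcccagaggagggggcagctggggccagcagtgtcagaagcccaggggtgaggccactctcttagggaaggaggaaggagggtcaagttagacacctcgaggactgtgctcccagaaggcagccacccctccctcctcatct
The Gna13 window is chr11:109362544-109362793 and the Gna15 window chr10:81524226-81524475. The GC box GGGCGG, read on both strands, was in windows of 6 of the 8 genes, Gna15 and Gnai3 being the other two, and in 32.7% of all 32851 windows. Also searched on both strands were GAGGAAGT (a PU.1 form), TGACGTCA and TGACGCAA (the palindromic cyclic AMP response element and a variant), TTGCGCAA (CEBP) and CCAAT (NF-Y), of which CCAAT alone was found, in 2 genes, Gnas and Gna12. These 5 are in 2.44%, 1.55%, 0.438%, 0.164% and 33.8% of all windows. Counted over the same 250 bases before the start, the dinucleotide CG occurred 4 times for Gna15. It occurred 14 to 43 times in the windows of the other 7 genes, with a median of 6 over all windows.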

How the data were processed

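RNA-seq libraries of 3 GPR35-negative and 3 GPR35-positive samples were grouped and numbered by their titles. Values are FPKM as deposited in 1 table, a unit named in the file headers by the authors, and all 6 value columns were used. Named without roles in the submitters' processing notes are HISAT2 2.1.0, HTSeq 0.9.1, fastp 0.22.0, DESeq 1.38.3 and the human build GRCh38, whereas the gene IDs are mouse; no source used here gives the annotation. Symbols, positions and exon lengths came from GENCODE M21, which held 21902 of 21959 IDs. With these lengths 97.7% of values above 0 were whole reads within 0.02 reads, which gave the read totals; a single read per kilobase equals 0.0546 to 0.0635 FPKM. Replicates differed by more than sampling noise (mean chi-square per gene 4.86 to 19.8).

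limma 3.58.1 (R 4.3.3) was fitted to log2(FPKM + 1) of 10060 genes, with group as the only term and a threshold of 0.05; other folds are ratios of mean FPKM. The plus 1 understates differences of low genes. Shares and ratios were tested by exact permutation (scipy 1.17.1), two-sided. The fit was also run on simulated data in which few genes changed, equally in both directions. In these data 68.8% of genes passed and more were lower than higher, so the simulation cannot show how calls hold under such a shift. Alternatives were a pseudocount of 0.1, 2 other filters, median-of-ratios scaling, limma-voom on recovered reads with TMM factors, a replicate block and leaving out each library. Named genes were all members, Gpr35, the alpha genes outside the 9, up to 5 genes of each partner list with the smallest p, and the 2 nearest profiles; cell type markers are given mainly as sums. Other genes, Gnb1, Gnb2, Gng3, Gng10, Pik3cb, Adcy1, Plcb1, Gm20721 and the markers among them, were named after their values were seen. The members and lists were chosen with earlier results of these data known. No genome sequence or protein table was used. A gene of the partner lists is not reported here.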

Additional observations from a re-analysis of the deposited data

How the results depend on the processing

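Of the 7 members tested, Gna13, Gnai2 and Gna15 kept their direction and their call under all 12 alternatives. The count of members higher, 4, was 3 to 5 under every alternative. The count of members lower, 1, was 0 by limma-voom on recovered reads and 1 to 2 when single libraries were left out, the 2 coming without GPR35-positive replicate 1, where Gnai3 passed. The difference of Gnai3, −0.11, reversed to 0.027 with median-of-ratios scaling and to 0.10 by limma-voom; the cause was not tested. Median-of-ratios scaling moved the median of all genes from −0.19 to −0.07 and limma-voom to −0.01; calls in all genes were then 2754 higher and 3033 lower, and 2980 higher and 2191 lower, against 2342 and 4575 as deposited. Without a filter 3440 were higher and 4382 lower. Shares and ratios kept their direction under every alternative run, but much of this was fixed in advance. Leaving out Gnas or not dividing by length cannot change the group difference in a log2 ratio of 2 other genes. Where the groups do not overlap, neither medians nor leaving out a library can turn the sign. The ratio of Gnai1 to Gnai2 was not run, since Gnai1 is at 0 in 2 libraries. Shares on reads not divided by length left out Gnas, whose reads could not be recovered. On those reads the Gq/11 share differed by −3.07 percentage points, against −1.71 in FPKM, and the groups did not overlap. In FPKM it was −0.78 without GPR35-negative replicate 1 and −2.60 without GPR35-negative replicate 3.

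Same-numbered libraries of the 2 groups had deviations that correlated at −0.002, 0.40 and −0.06. Differently numbered libraries correlated at −0.373 to 0.248. Of the same-numbered pairs only the pair numbered 2 was over 0.1 and the labels name no shared origin, so the numbers were not taken as pairs. With a replicate block 2365 genes were higher and 4633 lower. Among members the block brought Gnaq past the threshold (adjusted p = 0.0485), and it gave the same counts otherwise, with 5 members higher and 1 lower. Depth limits Gnai1 (0 to 2 reads), Gna15 (38 to 91) and Gna12 (70 to 146).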
